A study of Rattus norvegicus with 172 samples.

Results

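Granule cells of the rat dentate gyrus were examined at day 1 after pilocarpine in one of the laboratories that ran this model of epilepsy, called laboratory B here. The 12 rats described were chosen by their labels. They were 6 rats given pilocarpine and taken at day 1 and 6 control rats of the same laboratory, out of 164 rats (172 arrays) in the series. All were male Sprague-Dawley rats of 180 to 200 g. Both groups first received methylscopolamine at 1 mg/kg, a blocker of muscarinic receptors that keeps the effects of pilocarpine outside the brain small. The day 1 rats then received pilocarpine hydrochloride at 300 to 350 mg/kg after 30 min, and the controls received saline. Status epilepticus, a continuous seizure, was stopped in the pilocarpine rats with 25 mg/kg pentobarbital after it had lasted 90 min. The labels tie pentobarbital to the ending of seizures only, so the seizures and the drugs given cannot be told apart. Frozen brain was cut at 10 µm and stained with cresyl violet, and granule cells were collected by laser capture. RNA was pooled over the caps of each rat, with a minimum of 10 ng and an RNA integrity number over 7. Other groups are used only for comparison: pilocarpine rats and controls of a second laboratory (laboratory A, same protocol, 6 and 6 rats), Sprague-Dawley rats given repeated kainic acid, with pentobarbital after 90 min of status epilepticus, and their saline controls (6 and 6 rats), and the day 3 and day 10 rats of laboratory B, treated as the day 1 rats were (6 and 6 rats). A second kainate experiment, in which status epilepticus ended by itself (6 and 6 rats), serves only for counts of shared genes. So does the model labelled SSSE (6 day 1 rats and 5 controls). The strain, doses and weights of these rats are not described here. The age of the rats is not given in the labels.

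Granule cells receive the main cortical input to the hippocampus and pass it on to area CA3. Intense firing during a seizure is known to switch on immediate early genes within minutes, among them the transcription factors of the Fos and Jun families, which bind AP-1 sites, while CREB acts at cAMP response elements. Genes for neuropeptides, growth factors, matrix enzymes and ion channels follow over hours to days, and astrocytes and microglia nearby become reactive.

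Signal per probe set was measured on arrays and 10761 genes were tested, 1 probe set each, on the scale of log2(signal + 16). Levels are given below as the deposited linear signal, and differences as day 1 minus control in log2(signal + 16), which understates changes of dim genes. The standard errors and adjusted p-values come from limma with Benjamini-Hochberg adjustment over all 10761 genes (6 rats per group), and a gene passed when its adjusted p was under 0.05. The median signal per array was 32.7 to 44.1 at day 1 and 31.3 to 38.3 in controls (exact permutation test of the means, two-sided, p = 0.156, adjusted p = 0.312 over 4 checks). In day 1 rats 1 to 6 it was 33.94, 33.85, 32.7, 35.66, 42.13 and 44.11. The log2 ratios of 3' to 5' control probe sets rise as RNA degrades. For Gapdh they averaged 1.91 at day 1 and 1.91 in controls (exact permutation p = 0.987). For beta-actin they averaged 4.68 at day 1 and 4.66 in controls (exact permutation p = 0.935). The Gapdh ratio was 1.357 and 1.352 in day 1 rats 1 and 2, below every control (1.43 to 2.72). It was 1.573 in rat 3 and 2.281 to 2.536 in rats 4 to 6. The beta-actin ratio was 4.441 and 4.638 in rats 1 and 2 and 4.345 to 5.247 in rats 3 to 6. How far these array values bear on the differences was not tested.

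The day 1 rats did not form one group. Rats 1 and 2 correlated with the 6 controls at 0.943 to 0.967 across genes (median 0.961), but with day 1 rats 3 to 6 at only 0.91 to 0.939 (median 0.924). With the day 3 rats and with day 10 rats 4 to 6 they correlated at medians of 0.97 and 0.967, above the median with the controls. Rats 3 to 6 correlated with the controls at 0.878 to 0.922 and among themselves at 0.916 to 0.958. The median correlation of a rat with its own group averaged 0.932 at day 1 and 0.968 in controls, with no overlap. An exact permutation of these values gave p = 0.00216, the smallest that 6 against 6 allows (adjusted p = 0.00864). The 6 values of a group share pairs of rats and are not independent, so this p cannot test the difference in spread. A measure whose genes and effects came from other animals also set rats 1 and 2 apart from rats 3 to 6. Each rat's deviation from the laboratory B control mean was set against the day 1 difference of laboratory A, over the 2302 genes that passed in laboratory A alone, and a slope of 1 means a pattern of the same size. Day 1 rats 3, 4, 5 and 6 had slopes of 1.01, 0.969, 0.811 and 0.927, whereas rats 1 and 2 had 0.324 and 0.212. The controls had -0.0325 to 0.0283.

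**Figure D1:**
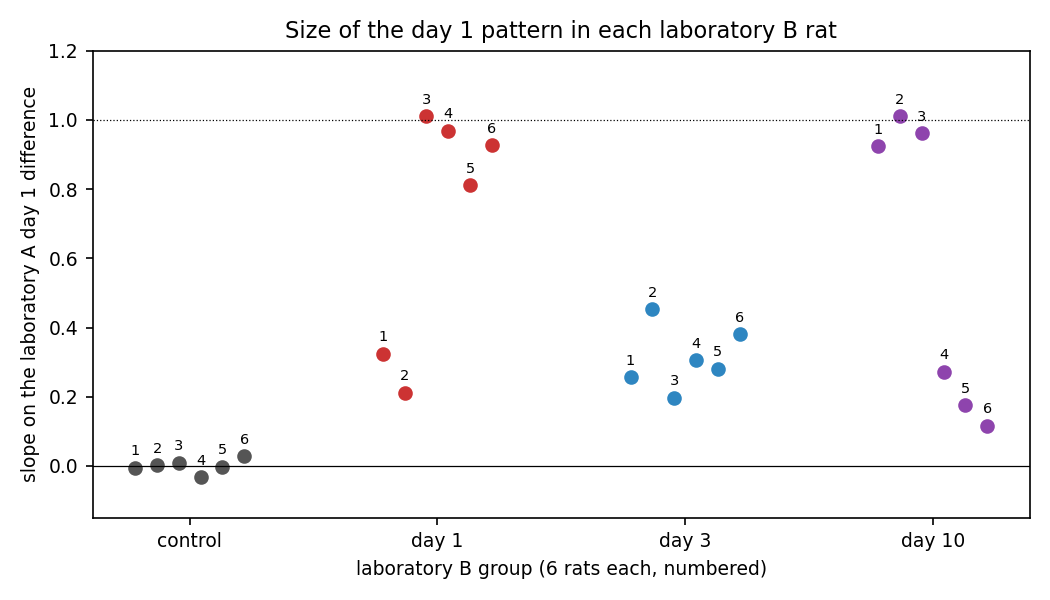
Slope of each laboratory B rat's deviation from the control mean on the laboratory A day 1 difference (vertical axis, no unit), for control, day 1, day 3 and day 10 rats, numbered as labelled. Day 1 rats 3 to 6 and day 10 rats 1 to 3 lie between 0.811 and 1.01, day 1 rats 1 and 2 at 0.324 and 0.212, and the day 3 rats between 0.197 and 0.453.

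Rats 1 and 2 thus lay, by this measure, in the range of the day 3 rats (0.197 to 0.453). Day 10 rats 1, 2 and 3 had slopes of 0.924, 1.01 and 0.962, in the range of day 1 rats 3 to 6, while day 10 rats 4, 5 and 6 had 0.272, 0.175 and 0.116. These rats were singled out after their values were seen, they are kept in the groups their labels give, and the cause was not tested. Whether samples of the day 1 and day 10 groups were exchanged was not tested either, and an exchange would change what the day 1 and day 10 values stand for. Counts over all genes, list counts and overlaps are given with these 2 day 1 rats and, for the main ones, also without them. Because day 1 rats 1 and 2 were nearest to the controls, leaving them out favours larger differences and more calls. The counts without them are therefore descriptions and no separate support.

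Of the 10761 genes, 1236 (11.5%) passed at day 1. Of these, 669 (6.22%) were higher and 567 (5.27%) were lower, and 456 (4.24%) differed by at least 2-fold, 264 upward (2.45%) and 192 downward (1.78%). The median difference over all genes was 0.03. In 557 genes (5.18%) all 6 day 1 rats lay outside the range of the 6 controls on the same side, above it in 276 (2.56%) and below it in 281 (2.61%), and 523 of these passed, 259 higher and 264 lower. Without day 1 rats 1 and 2, 2387 genes (22.2%) passed, 1197 higher (11.1%) and 1190 lower (11.1%), and 1198 of them were among the 1236. List counts below are to be read against the 11.5% of all genes that passed (6.22% higher, 5.27% lower). Those without day 1 rats 1 and 2 are to be read against the 11.1% in each direction. Leaving out single rats moved the count to between 731 (without day 1 rat 4) and 1762 (without day 1 rat 2). Leaving out day 1 rat 6 gave 760, and leaving out control rats 2 or 3 gave 807 or 816. Rats 1 and 2 were the day 1 rats nearest to the controls in 695 of the 1236 genes (56.2%), and in 167 of them (13.5%) both lay inside the control range.

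The largest rise among genes whose day 1 rats were all above the controls was that of Lox, the lysyl oxidase that cross-links collagen and elastin. Its signal was 254 at the lowest, 1501 at the median and 2918 at the highest in the day 1 rats, against 10.5, 20.8 and 35.5 in the controls. The lowest day 1 rat was thus far above the highest control, and the difference was 4.98 ± 0.49 (SE; 31.6-fold, limma adjusted p = 5.59e-05). Rats 1 and 2, at 525 and 254, were the lowest of the day 1 group.

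Other genes of the matrix, of proteases and of their inhibitors rose as well. Prss23, a serine protease, had a signal of 349.9, 441 and 809.9 (lowest, median, highest) at day 1, against 24.5, 38.4 and 68.7 in controls, with a difference of 3.12 ± 0.22 (SE; limma adjusted p = 2.64e-06). Here rats 1 and 2, at 465 and 349.9, were at the level of the other 4, which ranged from 399.8 to 809.9. Timp1, an inhibitor of matrix metalloproteinases, showed the opposite: rats 1 and 2 had 30 and 30.9, rats 3 to 6 had 306 to 392, and controls had 9.77 to 20.5. Its difference was 2.58 ± 0.52 over all 6 rats (SE; limma adjusted p = 0.00659) and 3.57 without rats 1 and 2. Fibronectin (Fn1) rose by 1.86 and the gelatinase Mmp9 by 1.72. In the list of 27 matrix and protease genes tested, 9 rose, none fell and 18 did not pass (33.3% called, against 11.5% of all genes). Their median was 0.58. With rats 1 and 2 left out, 12 rose and 2 fell. Col6a3, a chain of collagen VI outside that list, rose by 2.97.

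**Figure D2:**
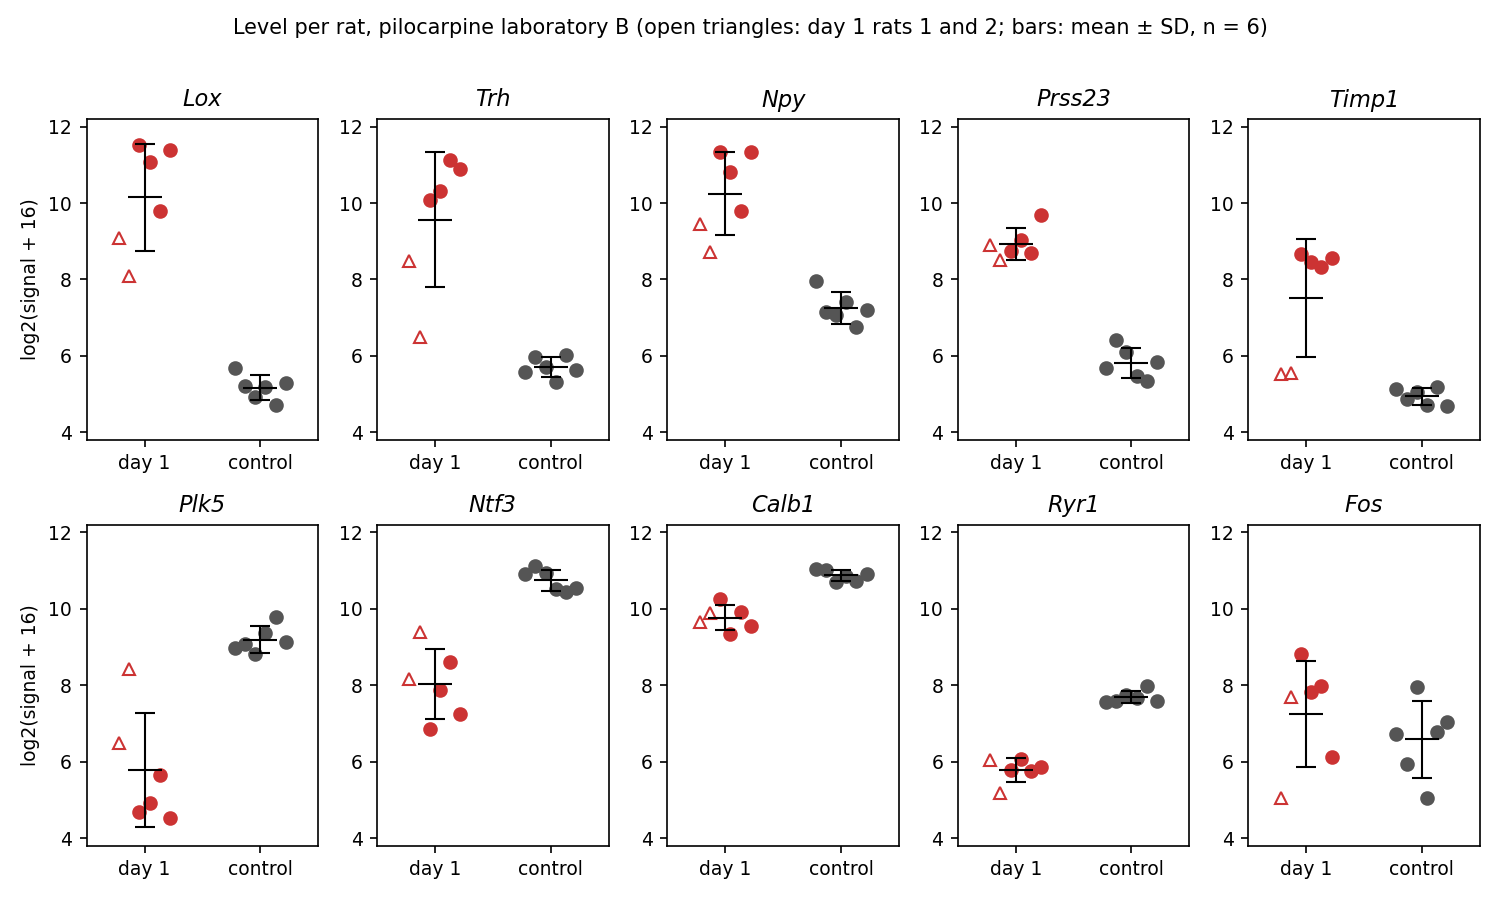
Level of 10 genes in each rat, as log2(signal + 16), with day 1 on the left and control on the right of each panel. Bars give the mean ± SD of 6 rats and open triangles mark day 1 rats 1 and 2. Day 1 and control rats do not overlap in any panel except that of Fos, and the triangles for Timp1 lie just above the controls.

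Neuropeptide genes showed some of the largest rises. Trh, which encodes the precursor of thyrotropin-releasing hormone, had a signal of 73.9, 1155 and 2208 (lowest, median, highest) at day 1, against 24.1, 34.8 and 48.4 in controls. No day 1 rat overlapped the controls, although rat 2, at 73.9, came close. The difference was 3.86 ± 0.60 (SE; limma adjusted p = 0.0013). Npy, the precursor of neuropeptide Y, had 404, 1327 and 2577 at day 1, against 91.4, 128 and 233 in controls, and rose by 2.99 ± 0.40 (limma adjusted p = 0.000438). Penk, the enkephalin precursor, had 802 to 2542 at day 1 and 159 to 575 in controls and rose by 2.12. Chgb, a protein of secretory granules, rose by 0.80, and Nmb, neuromedin B, fell by 1.41 with all 6 day 1 rats below the controls. Of the 18 genes tested in this list, 5 rose, 1 fell and 12 did not pass (33.3% called, against 11.5% of all genes). The fifth riser, Tgfbi (2.74), is a matrix protein and not a peptide. Without rats 1 and 2, 7 rose and 2 fell, where 11.1% of all genes passed in each direction.

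Further genes among the 15 largest rises had other roles. Rprm, reprimo, a p53 target that holds cells in G2, rose by 3.16 ± 0.30, and its signal was 285 to 871 at day 1 and 9.96 to 61.1 in controls. Car10, a carbonic anhydrase-related protein without catalytic activity, rose by 3.12 ± 0.31, with 110.2 to 414 at day 1 and 1.43 to 33.9 in controls. Lgals3 (galectin-3) rose by 3.23, Palmd (palmdelphin) by 3.20, Nnat (neuronatin) by 2.78, the mannosidase Man1a1 by 2.73, the membrane glycoprotein Gpnmb by 2.66, the ligand Wnt10a by 2.53 and S100a10, the partner of annexin A2, by 2.45. In 11 of these 15 genes rats 1 and 2 were the nearest to the controls. Rgs4, which speeds the shut-off of G protein signals, was left out of the 15 because rat 1 overlapped the controls. It had 89.1 in rat 1 and 982 to 3658 in the other day 1 rats, against 25.5 to 103 in controls, a difference of 4.21 ± 0.65 (SE; limma adjusted p = 0.00129).

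Plk5, a brain member of the polo-like kinase family, showed the largest fall of this kind. Its signal was 7.21, 24.3 and 329.5 (lowest, median, highest) at day 1, against 431, 534 and 874 in controls. All 6 day 1 rats were below the controls, and rat 2 was the highest of them at 329.5. The difference was -3.40 ± 0.52 (SE; 10.6-fold lower, limma adjusted p = 0.00111). Col25a1, a membrane collagen of neurons, fell by 2.97 ± 0.41. B3galt5, a galactosyltransferase, had a difference of -2.78 ± 0.36.

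Several growth factors were among the largest falls. Ntf3, neurotrophin-3, had a median of 245 and a highest value of 657 at day 1, against 1383, 1688 and 2204 (lowest, median, highest) in controls, a difference of -2.72 ± 0.33 (SE; limma adjusted p = 0.000249). Gdf10, a growth factor of the TGF-beta family, had 0.401 to 30 at day 1 and 80.3 to 163 in controls, a difference of -2.17 ± 0.24. The binding protein Igfbp5 fell by 1.79 and the EGF receptor gene Egfr fell by 1.35. In the same list of 22 neurotrophin and growth factor genes 4 rose, among them Inhba (activin A subunit, 1.75), Vegfa (1.56) and Fgf1 (1.39). In all, 4 rose, 4 fell and 14 did not pass (36.4% called, against 11.5% of all genes). Bdnf, brain-derived neurotrophic factor, had 354 to 729 at day 1 and 216 to 508 in controls, with a difference of 0.46 (95% interval -0.03 to 0.95, limma adjusted p = 0.209).

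For Ryr1 and Ddit4l all 6 day 1 rats lay far below the controls. Ryr1, a calcium release channel of the endoplasmic reticulum, had 20.5, 40.3 and 50.8 at day 1, against 172, 183 and 238 in controls, a difference of -1.91 ± 0.16 (SE; limma adjusted p = 1.34e-05). Rats 1 and 2, at 49.7 and 20.5, were no nearer to the controls than the others. Ddit4l, an inhibitor of mTOR signalling, had 26.9 to 81.3 at day 1 and 258 to 381 in controls and fell by 2.33 ± 0.20 (limma adjusted p = 1.34e-05). The transcription factor Rreb1 fell by 2.57, the guidance factor Sema3e by 2.12, the adrenergic receptor gene Adra1d by 2.06 and the heparan sulfate carrier Gpc3 by 2.32. The remaining genes among the 15 were Calml4 (-2.53), Spata13 (-2.38), Galnt18 (-2.10) and Dipk2a (-2.04). In 10 of the 15 largest falls rats 1 and 2 were the nearest to the controls.

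Immediate early transcription factors passed at about the share of all genes. Of 20 tested, 2 rose (10% called, against 11.5% of all genes), none fell and 18 did not pass, with a median difference of 0.48, against 0.03 over all genes. Ier2 had a signal of 48.7, 92.6 and 156 at day 1, against 19.7, 48.6 and 69.2 in controls (0.80 ± 0.24 SE, limma adjusted p = 0.045). Crem, which encodes the CREB-related modulator of cAMP responses, had 161, 254 and 412 at day 1, against 119, 146 and 192 in controls (0.68 ± 0.20 SE, limma adjusted p = 0.0425). In both genes 5 of 6 day 1 rats were above the controls. Neither call was stable: of 26 alternative settings, 17 ended that of Ier2 (adjusted p up to 0.372) and 16 that of Crem (adjusted p up to 0.16). Fos had 16.9, 201 and 433 at day 1, against 16.8, 92 and 232 in controls, so the groups overlapped over most of their range (0.67, 95% interval -0.56 to 1.89, limma adjusted p = 0.477). Without rats 1 and 2, 7 of the 20 rose and 2 fell, where 11.1% of all genes rose and 11.1% fell.

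The promoters of these genes were searched because AP-1 and CREB factors act on them. The letters TGACGTCA (the full cAMP response element) and TGANTCA (the AP-1 site) read the same on both strands and do not overlap each other. They occurred in 1.83% and 7.33% of all 33469 RefSeq promoters of 300 bases (250 before and 50 after the start, build GRCr8). These are shares of single promoters. A gene below was counted when any of its promoters held the letters, so its counts cannot be set directly against these shares. Of the 20 factors 16 had a promoter in the table, and 3 of these held TGACGTCA: Ier2, Crem and Jund, the last of which did not pass (0.53, limma adjusted p = 0.109) and is named only for this match. None of the 16 held the AP-1 letters. Of the 22 effector immediate early genes described below, 19 had a promoter. Of these, 3 held TGACGTCA (Dusp1, Plk2 and Vgf) and 3 held TGANTCA (Bdnf, Dusp14 and Sgk1). Dusp1 and Plk2 passed as higher, and Vgf, Bdnf, Dusp14 and Sgk1 did not pass. Among the 15 largest rises 10 had a promoter, of which 0 held TGACGTCA and 1, Gpnmb, held TGANTCA. Among the 15 largest falls 12 had a promoter, and 0 held either. The matches are descriptions of letters and show no binding. The promoters of Ier2, Crem and Gpnmb with the most matches for each gene are shown, with the matches in capitals. They lie at chr19:40399123-40399422 (Ier2), chr17:58985240-58985539 (Crem) and chr4:79340878-79341177 (Gpnmb), all on the plus strand.
Ier2: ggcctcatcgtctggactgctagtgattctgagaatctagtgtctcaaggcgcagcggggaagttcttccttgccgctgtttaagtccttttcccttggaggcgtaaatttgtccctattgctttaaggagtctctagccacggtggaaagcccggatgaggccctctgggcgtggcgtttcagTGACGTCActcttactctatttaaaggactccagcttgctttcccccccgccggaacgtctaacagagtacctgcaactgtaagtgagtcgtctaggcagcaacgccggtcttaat
Crem: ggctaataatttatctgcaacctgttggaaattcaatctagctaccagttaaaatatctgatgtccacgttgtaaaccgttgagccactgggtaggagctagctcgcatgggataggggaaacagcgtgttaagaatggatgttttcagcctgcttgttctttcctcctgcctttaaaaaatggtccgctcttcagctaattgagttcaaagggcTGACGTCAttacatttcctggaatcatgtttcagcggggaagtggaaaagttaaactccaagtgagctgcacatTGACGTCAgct
Gpnmb: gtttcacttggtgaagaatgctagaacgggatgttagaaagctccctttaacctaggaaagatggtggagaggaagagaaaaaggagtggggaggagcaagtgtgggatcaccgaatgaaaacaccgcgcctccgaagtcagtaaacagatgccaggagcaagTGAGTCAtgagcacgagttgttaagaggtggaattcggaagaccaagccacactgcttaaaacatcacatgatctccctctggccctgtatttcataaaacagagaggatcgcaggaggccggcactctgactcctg

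Effector immediate early genes encode products that act at synapses or in signalling. Of 22 tested, 9 rose, none fell and 13 did not pass, with a median of 0.53, and 13 rose without rats 1 and 2. Ptgs2, cyclooxygenase-2, had 884, 1305 and 2955 at day 1, against 322, 428 and 793 in controls, without overlap (1.57 ± 0.29 SE, limma adjusted p = 0.00337). Ptprn, a protein of dense core vesicles, rose by 1.70 with all 6 day 1 rats above the controls. Gadd45b, a stress-inducible regulator of MAP kinase signalling, rose by 1.87, but rats 1 and 2, at 169.8 and 154, were inside the control range of 119 to 178 while rats 3 to 6 had 855 to 1541. Arc, which regulates AMPA receptor uptake, had 35.4 to 101 at day 1 and 38.5 to 92.4 in controls (0.15, 95% interval -0.33 to 0.63, limma adjusted p = 0.698).

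Genes typical of granule cells were mostly lower. Of 16 markers tested, 9 fell, 1 rose and 6 did not pass, with a median of -0.91, and their summed signal was 9274 to 15910 at day 1 and 17600 to 22880 in controls. In captured tissue a lower sum can mean fewer cells of a type or less RNA per cell, and these cannot be told apart. Prox1, the factor that defines these cells, had a signal of 1301, 1864 and 2840 at day 1, against 2140, 3175 and 4718 in controls (-0.73, limma adjusted p = 0.062). It passed as lower in 8 of 26 alternative settings. Calb1, the calcium buffer calbindin, had 635, 855 and 1209 at day 1, against 1639, 1868 and 2100 in controls, without overlap (-1.11 ± 0.16 SE, limma adjusted p = 0.000633). The synaptic organiser C1ql3 fell by 1.60 and the receptor gene Npy1r by 1.56, beside Plk5 and Col25a1 described above. Penk was the marker that rose. Without rats 1 and 2, 13 of the 16 markers fell, where 11.1% of all genes did.

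Calbindin belonged to a broader set of lower calcium genes. Of 27 calcium binding and release genes tested, 12 fell, 1 rose and 14 did not pass, with a median of -0.57. In rats 3 to 6 alone, 14 fell and 2 rose. Calml4, a calmodulin-like protein, had 183 and 154 in rats 1 and 2 and 12.5 to 22.1 in rats 3 to 6, against 264 to 389 in controls. Hippocalcin (Hpca) fell by 1.83, the IP3 receptor Itpr1 by 1.69 and Ryr1 by 1.91, as given above. Rcan2, a regulator of calcineurin, rose by 2.85 ± 0.45, with 496 to 3828 at day 1 and 112 to 517 in controls.

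Potassium channel genes passed in both directions. Of 34 tested, 3 rose and 4 fell, 20.6% called against 11.5% of all genes, with a median of -0.10. The channel-interacting proteins of A-type currents moved apart: Kcnip2 had 322, 535 and 1171 at day 1, against 1525, 1923 and 2386 in controls (-1.58 ± 0.28 SE, limma adjusted p = 0.00318), and Kcnip3 had 390.5, 557 and 967 at day 1, against 127, 216 and 317 in controls (1.42 ± 0.24 SE, limma adjusted p = 0.0026). Neither overlapped. The subunit genes Kcng2 and Kcnq5 fell by 1.46 and 0.97, and Kcnc2 rose by 0.88.

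Of 22 sodium, calcium and HCN channel genes, 1 rose (Scn3a, 0.54) and 1 fell (Scn4b, -1.63), 9.09% called against 11.5% of all genes. For Scn4b rat 2, at 225, was above the highest control of 219. Of 14 genes of GABA receptors and GABA handling, 2 fell and none rose (14.3% called, near the 11.5% of all genes). Gabra5, the alpha5 subunit of receptors outside synapses, had 177, 326 and 978 at day 1, against 994, 1211 and 1457 in controls (-1.65, limma adjusted p = 0.0087), and Gabrd, the delta subunit, had 84.2, 161 and 424 at day 1, against 459, 505 and 639 in controls (-1.37, limma adjusted p = 0.00822). In both genes rats 1 and 2 were the nearest to the controls. Without them, 5 of the 14 fell, where 11.1% of all genes did.

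Of 16 glutamate receptor genes, 2 fell (12.5% called): Gria1, an AMPA receptor subunit (-0.87), and Grm3, a metabotropic receptor (-1.42), of which only rats 3 to 6 were below the controls. Pilocarpine acts at muscarinic receptors, and of that list of 26 muscarinic and G protein signalling genes 2 rose (Rgs4 and Rgs2) and 3 fell (Htr5b, Rgs10 and Pde1b), 19.2% called. The call of Rgs2 was lost in 15 of 26 alternative settings. The muscarinic receptor gene tested, Chrm3, had 28.3 to 68 at day 1 and 28.9 to 54.8 in controls (0.04, 95% interval -0.32 to 0.40). Of 24 synaptic vesicle genes, 2 rose (Syn1, 1.18, and Nrxn3, 1.10), 8.33% called against 11.5% of all genes, and the median was 0.01. The call of Syn1 was lost in 15 of 26 alternative settings (adjusted p up to 0.123).

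Adhesion and guidance genes were lower more often than higher. Of 34 tested, 12 fell, 2 rose and 20 did not pass, with a median of -0.44, and 18 fell and 2 rose without rats 1 and 2. Gpc3 and Sema3e led, followed by the cadherin Cdh13 (-1.77). Sdc1, a syndecan, rose by 2.61 and the ephrin Efna5 by 2.28 ± 0.41, Efna5 with 134 to 1254 at day 1 and 43.3 to 110.2 in controls. Actin cytoskeleton and annexin genes went the other way, with 18 of 33 higher, none lower and a median of 0.66, and 20 higher and 1 lower without rats 1 and 2. They were led by Lgals3 and S100a10, with Msn (moesin, which links actin to the membrane) rising by 2.28, S100a4 by 1.94 and Flnc (filamin C) by 1.86. Of 17 young neuron and stem cell markers 3 rose and 1 fell (23.5% called, against 11.5% of all genes). Among the risers were the growth cone protein Gap43 (1.88 ± 0.26, with 757 to 1955 at day 1 and 217 to 646 in controls) and the factor Sox11 (1.67). Neurod1 fell by 0.92.

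**Figure D3:**
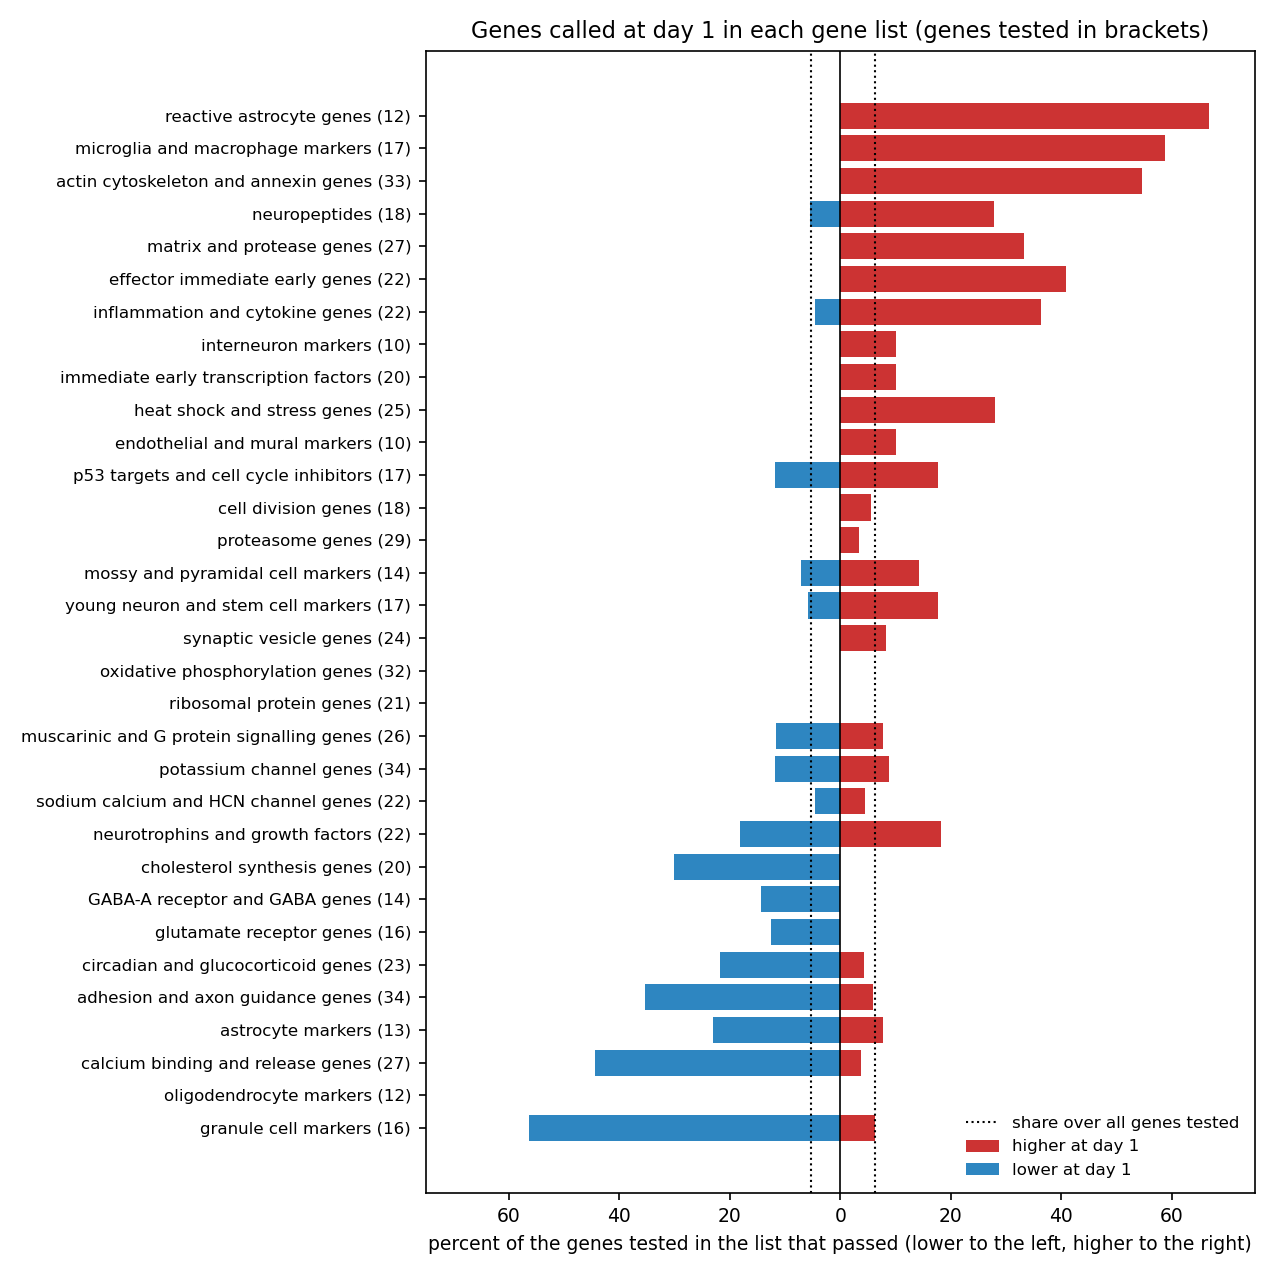
Percent of the genes tested in each of 32 gene lists that passed at day 1, higher to the right (red) and lower to the left (blue), ordered by the median difference of the list, with the number tested in brackets. Dotted lines mark the shares over all genes, 6.22% higher and 5.27% lower. Reactive astrocyte, microglia and cytoskeleton lists extend furthest to the right, and granule cell, calcium and adhesion lists furthest to the left.

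Glial lists held some of the highest shares. Of 12 reactive astrocyte genes 8 rose and none fell, with a median of 1.22, and 11 rose without rats 1 and 2. They were Timp1, S100a10, the heat shock protein Hspb1, the filament protein Vim (2.21), Cd44 and Gfap among others. Gfap, the astrocyte filament, had 251, 586 and 1214 at day 1, against 149.7, 259 and 404 in controls (1.16 ± 0.31 SE, limma adjusted p = 0.0244), with 5 of 6 day 1 rats above the controls and rat 2 the highest. Of 13 general astrocyte markers, by contrast, Gfap rose and 3 fell: the gap junction gene Gja1 (-1.46), the bicarbonate transporter Slc4a4 (-1.43) and Aldoc (-1.16). Their summed signal was 2781 to 9324 at day 1 and 5387 to 7468 in controls, and 10 of the 13 fell without rats 1 and 2, where 11.1% of all genes did.

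Of 17 microglia and macrophage markers 10 rose and none fell (11 and 1 without rats 1 and 2), with a median of 0.96 and a summed signal of 1157 to 3930 at day 1, against 543.3 to 940.4 in controls. Lyz2, lysozyme, had 120.2, 1255 and 2418 at day 1, against 138, 163 and 203 in controls, and rat 1 was below every control (2.25 ± 0.56 SE, limma adjusted p = 0.0189). Laptm5, a lysosomal protein of blood cells, had 43.4 to 123 at day 1 and 8.82 to 22 in controls, without overlap (1.75 ± 0.20 SE). The receptors Fcgr2b (1.90), Cd14 (1.69) and Fcer1g (1.68) rose as well.

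Markers of other cells the capture could hold were also read. Of 10 interneuron markers Npy alone passed (10% called, against 11.5% of all genes). Granule cells are known to make Npy after seizures, but which cells held it here was not tested. The median of the 10 markers was 0.49, and 7 of the 10 had a difference above 0. The summed signal of these markers, with Npy included, was 3418 to 9404 at day 1 and 1473 to 4649 in controls. Of 14 mossy and pyramidal cell markers, 2 rose (Ociad2, 2.19, and Dkk3, 0.77) and 1 fell (Cpne4, -1.09), 21.4% called against 11.5% of all genes. The call of Dkk3 was lost in 16 of 26 alternative settings (limma adjusted p up to 0.235). The sums of the mossy and pyramidal markers were 7872 to 9479 at day 1 and 9095 to 12730 in controls. Of 12 oligodendrocyte markers 0 passed by limma, with a median of -0.58 and sums of 962.4 to 4092 at day 1 and 1010 to 8782 in controls. Of 10 endothelial and mural markers 1 rose (Vwf, 0.77), 10% called against 11.5% of all genes. The sums of these markers were 342.3 to 714.3 at day 1 and 286.8 to 536 in controls. No tested marker was listed at 0 on any of the 12 arrays, and the lowest signal was 0.587. Without detection calls this does not show that a marker was detected. The part of other cells in the differences was not tested.

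Several inflammation and stress genes were high in day 1 rats 3 to 6 and at or near control levels in rats 1 and 2. Of 22 inflammation and cytokine genes 8 rose, 1 fell and 13 did not pass, and 11 rose and 2 fell without rats 1 and 2. The chemokine Ccl2 had 2.27 and 2.03 in rats 1 and 2, inside the control range of 0.992 to 11.6, and 124 to 249 in rats 3 to 6 (2.07 ± 0.60 SE, limma adjusted p = 0.0391). The chemokine Cxcl1 showed the same split, with 0.715 and 2.18 in rats 1 and 2, 44.1 to 77 in rats 3 to 6, and 0.742 to 9.95 in controls. The calls of Ccl2 and Cxcl1 were each lost in 13 of 25 alternative settings. Stat3, a transcription factor of cytokine signalling, was above the controls in all 6 rats, with 173 to 695 at day 1 and 64.6 to 148 in controls (1.69 ± 0.30 SE), and so was Tnfrsf1a, a TNF receptor (1.24 ± 0.14 SE, limma adjusted p = 0.000168).

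Of 25 heat shock and stress genes 7 rose and none fell, where 6.22% of all genes rose. In rats 3 to 6 alone, 12 rose and 1 fell, where 11.1% of all genes rose. Hspb1, a small heat shock protein, had 6.42 and 5.53 in rats 1 and 2, inside the control range of 0.779 to 18.2, and 208 to 377 in rats 3 to 6 (2.29 ± 0.66 SE, limma adjusted p = 0.0367). Cryab, another small heat shock protein, had 67.3 and 72.7 in rats 1 and 2, 274 to 667 in rats 3 to 6, and 29.6 to 101 in controls. Vegfa, named above, had 39 and 41 in rats 1 and 2, 212 to 467 in rats 3 to 6, and 34.5 to 49.2 in controls. In all, 334 genes were above and 362 below the control range in rats 3 to 6 and in no other day 1 rat, more than for any other set of 4 rats, of which the next (rats 1, 4, 5 and 6) had 149 and 149. Of 17 p53 targets and cell cycle inhibitors 3 rose, namely Rprm, Cdkn1a (p21, 1.97) and Gadd45a (1.08), while Bnip3 (-0.88) and Sesn1 (-0.73) fell. In this list 29.4% were called, against 11.5% of all genes.

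Lists of basic cell functions differed in how many genes passed, where 11.5% of all genes did. Of 32 oxidative phosphorylation genes and 21 ribosomal protein genes 0 passed by limma, with medians of -0.01 and -0.02, and 1 of 29 proteasome genes rose (Psmb8, an immunoproteasome subunit, 1.01). Of 18 cell division genes 1 rose (Pcna, 0.56). Of 20 cholesterol synthesis genes 6 fell and none rose (30% called), led by Idi1 (-0.81), Pmvk (-0.75) and Lss (-0.71). Of 23 circadian and glucocorticoid genes 5 fell, among them the clock-controlled factors Hlf (-1.65) and Dbp (-1.01), the clock gene Per2 (-1.13) and the glucocorticoid receptor Nr3c1 (-0.80), and Bhlhe41 rose by 1.43, in all 26.1% called. The calls of Dbp and Per2 were each lost in 13 of 26 alternative settings. With rats 1 and 2 left out, 10 of the 23 fell, where 11.1% of all genes did.

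The same protocol was run in laboratory A with its own controls, which asks whether the day 1 response depended on the laboratory. Of the 1236 genes that passed in laboratory B, 798 passed in the same direction in laboratory A alone, where 2302 genes (21.4%) passed, 1050 (9.76%) higher and 1252 (11.6%) lower. These were 64.6% of the laboratory B genes and 34.7% of the laboratory A genes, and 1 gene passed in opposite directions. Without rats 1 and 2, 1305 genes were shared (54.7% of the 2387 laboratory B genes and 56.7% of the laboratory A genes). Of the 1236 genes 97% had the same sign in laboratory A, against 69.3% of all genes, and the differences correlated at r = 0.748 across the 10761 genes, which are not independent replicates. All 15 largest rises and all 15 largest falls passed in the same direction in laboratory A.

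**Figure D4:**
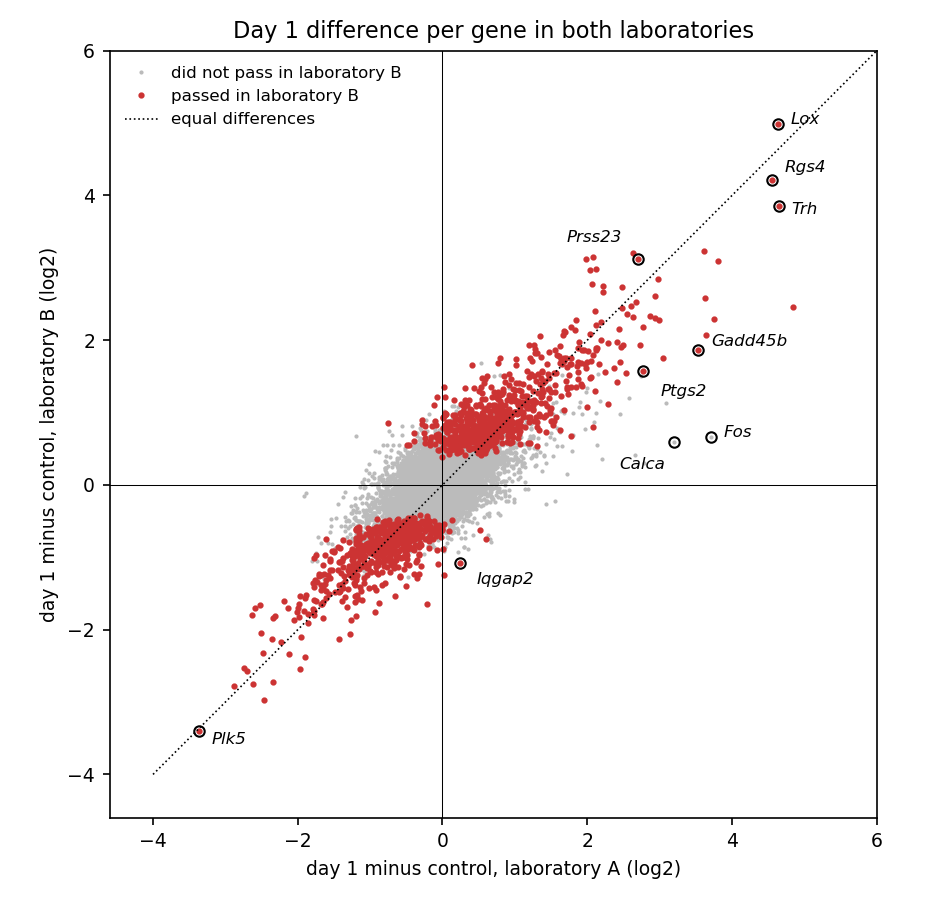
Day 1 minus control in log2(signal + 16) for each of 10761 genes, in laboratory B (vertical) and laboratory A (horizontal). Red points passed in laboratory B, and the dotted line marks equal differences. Lox, Rgs4, Trh and Plk5 lie near the line, Fos and Calca lie right of it (0.67 and 0.60 in laboratory B, 3.71 and 3.20 in laboratory A), and Iqgap2 is lower in laboratory B.

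The difference between the laboratories was itself tested. It passed for 2 of 10761 genes (0.0186%), while 1101 (10.2%) had an unadjusted p under 0.05. Iqgap2, a scaffold protein of the cytoskeleton, fell by 1.08 in laboratory B, with 169.8 to 277 at day 1 and 406 to 487 in controls, and differed by 0.24 in laboratory A (laboratory B minus A -1.33, 95% interval -1.77 to -0.88, limma adjusted p = 0.0222). Calca, the precursor of calcitonin and its related peptide, differed by 0.60 in laboratory B, with 2.06 to 83.6 at day 1 and 2.37 to 26.8 in controls, and rose by 3.20 in laboratory A (laboratory B minus A -2.60, limma adjusted p = 0.048). Neither gene passed without rats 1 and 2. Leaving out single rats of either laboratory gave 0 to 4 genes, and 0 without day 1 rats 1 or 2 or control rats 1, 3, 5 or 6 of laboratory B, or day 1 rats 4 or 6 or control rats 1 or 4 of laboratory A. It gave 4 without control rat 6 of laboratory A, and 1 without day 1 rat 6 or control rats 2 or 4 of laboratory B, or day 1 rats 1, 3 or 5 or control rats 2, 3 or 5 of laboratory A.

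Immediate early genes were set side by side for the laboratories, and the difference did not pass for any of them. Of the 20 factors, 2 rose in laboratory B (median 0.48) and 11 in laboratory A (median 1.33). Without day 1 rats 1 and 2, 7 rose and 2 fell in laboratory B. Fos differed by 0.67 in laboratory B and 3.71 in laboratory A (laboratory B minus A -3.05, 95% interval -5.18 to -0.92, limma adjusted p = 0.356), and Gadd45b by 1.87 in laboratory B and 3.54 in laboratory A (-1.67, adjusted p = 0.356). Over all genes 6.22% rose in laboratory B (11.1% without day 1 rats 1 and 2) and 9.76% in laboratory A.

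Kainate, an agonist of glutamate receptors, was used in another laboratory with status epilepticus stopped after the same 90 min. There model and laboratory cannot be told apart. In that experiment 2490 genes (23.1%) passed at day 1, and 820 of them passed in the same direction after pilocarpine in laboratory B, which is 66.3% of the laboratory B genes and 32.9% of the kainate genes. Without rats 1 and 2, 1310 were shared (54.9% and 52.6%). In a second kainate experiment, in which status epilepticus ended by itself, 3249 genes (30.2%) passed at day 1, and 948 passed in the same direction as in laboratory B (76.7% of the laboratory B genes and 29.2% of the kainate genes), or 1498 without rats 1 and 2 (62.8% and 46.1%). At day 1 of the model labelled SSSE, 763 genes (7.09%) passed, 2.7% of all genes higher and 4.39% lower. Of these, 290 were shared in direction (23.5% of the laboratory B genes and 38% of the SSSE genes), or 398 without rats 1 and 2 (16.7% and 52.2%). Of the 1236 laboratory B genes 92.5% had the same sign in SSSE, against 67.5% of all genes. The SSSE day 1 rats were uneven, with slopes on the laboratory A difference of 0.117 to 0.784. The labels of SSSE day 1 rat 3 conflict between fields, and its title was followed. The difference between laboratory B and the first kainate experiment passed for 3 genes (0.0279%), with 1349 (12.5%) at an unadjusted p under 0.05. Laptm5 rose by 1.75 after pilocarpine and differed by -0.17 after kainate (pilocarpine minus kainate 1.92, limma adjusted p = 0.00798). Prss23 rose less after pilocarpine, by 3.12 against 4.90 after kainate (-1.77, limma adjusted p = 0.0288). Snx7, a sorting nexin, differed by -0.12 after pilocarpine and by 1.63 after kainate (-1.75, limma adjusted p = 0.0445). Without day 1 rats 1 and 2, 82 genes passed this test, and without day 1 rats 3 or 4, 38 or 10 did. Only 1 gene passed without day 1 rats 2 or 5 or control rats 1, 2, 3 or 6 of laboratory B, without day 1 rat 2 or control rats 1 or 4 of the kainate experiment, with 1 added before log2, or with array weights. Without kainate day 1 rats 1, 3 or 4 the count was 6, 5 or 6.

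Later days in laboratory B showed what followed, though these comparisons share rats with those above. Against the same controls 379 genes (3.52%) passed at day 3, 2.35% higher and 1.17% lower, and 654 (6.08%) passed at day 10, 2.6% higher and 3.48% lower. The 15 largest rises of day 1 had median differences from control of 2.99 at day 1, 2.07 at day 3 and 2.21 at day 10, and 10 passed at day 3 and 12 at day 10. The 15 largest falls had medians of -2.33, -1.60 and -1.96, and 7 passed at day 3 and 12 at day 10. These genes were chosen by their day 1 values, which favours smaller values at other days, and 0 of the 30 differed between day 3 and day 1 by limma. Within day 10 the rises had a median of 3.38 in rats 1 to 3 and 1.10 in rats 4 to 6, and the falls -2.95 in rats 1 to 3 and -1.21 in rats 4 to 6. Lox had medians of 20.8 in controls, 1501 at day 1 and 340.4 at day 3, and then 1775 to 2835 in day 10 rats 1 to 3 and 149 to 179 in day 10 rats 4 to 6. Prss23 had 38.4, 441 and 311 in controls, at day 1 and at day 3. Ryr1 had 183, 40.3 and 36.1.

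**Figure D5:**
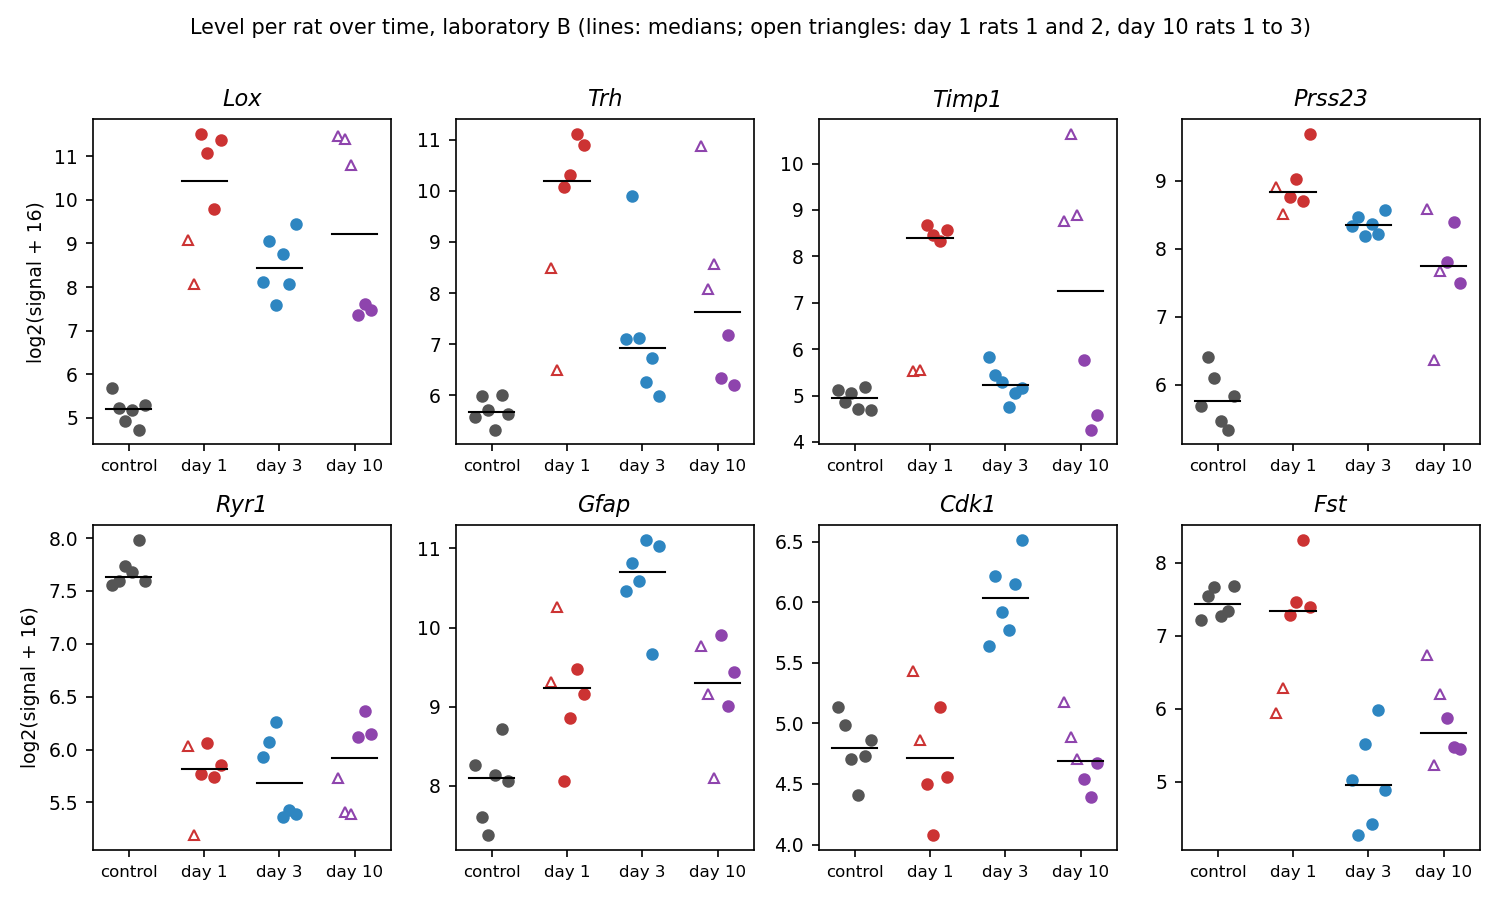
Level of 8 genes in each laboratory B rat, as log2(signal + 16), in controls and at days 1, 3 and 10. Lines mark medians and open triangles mark day 1 rats 1 and 2 and day 10 rats 1 to 3. Lox, Trh and Timp1 are split at day 10 between rats 1 to 3 and rats 4 to 6, while Ryr1 is below the controls in all later rats.

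Day 3 itself differed from day 1 in 13 genes (0.121%), 9 higher and 4 lower, with 1841 (17.1%) at an unadjusted p under 0.05. Cdk1, the kinase that drives mitosis, had a signal of 5.27 to 19.2 in controls, 0.862 to 27.2 at day 1 and 33.9 to 75.6 at day 3 (day 3 minus day 1 1.27 ± 0.20 SE, limma adjusted p = 0.00404). Pclaf, a partner of PCNA, was higher by 1.14, and Fcrl2 and Lxn by 1.57 and 1.32. Fst, follistatin, which binds activin, had 132 to 189 in controls, 45.5 to 303 at day 1 and 3.26 to 47.1 at day 3, a difference of -2.09 (limma adjusted p = 0.00404). Rasd1, Wtip and Emb were lower by 1.96, 1.00 and 0.75. Without day 1 rats 1 and 2, 1376 genes passed, and without 1 of them 180 (rat 1) or 470 (rat 2). Leaving out day 1 rat 3 gave 37, day 1 rat 4 gave 5, day 1 rats 5 or 6 and day 3 rats 1 or 6 gave 8 each, and day 3 rat 3 gave 7. For day 10 minus day 1, 0 genes passed by limma, with 1398 (13%) at an unadjusted p under 0.05. This count was 175 without day 1 rats 1 and 2, 167 without day 10 rats 1 to 3 and 1578 without all 5.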

How the data were processed

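RNA of laser-captured granule cells was read on Affymetrix rat arrays, 1 array per rat in laboratory B. The deposited values are linear signal intensities made with MAS5, per the submitters' processing notes, and every array has a trimmed mean of 150.04 to 150.06, so total amounts of RNA cannot be compared. The table holds no detection calls that were used, and precision is limited by the number of arrays. Intensities were analysed as log2(signal + 16). Of 31042 probe sets other than controls, 20826 had 1 gene symbol, 436 several and 9780 none. Probe sets above their array's median in at least 6 of 164 rats were kept, and each gene took its brightest (10761 genes, 2677 of them with several kept probe sets).

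The test was that of limma (version 3.58.1, run under R 4.3.3) without a replicate block, adjusted by Benjamini-Hochberg. Comparisons between laboratories or models fitted both effects together. Repeated arrays of 5 laboratory A controls and of SSSE day 1 rat 6 were averaged. Same-numbered rats deviated together with correlations of -0.0245 to 0.359, so numbers were not taken as pairs. On simulated data for this day 1 comparison (10761 genes) 70 of 100 genes changed by log2 1 and 99 of 100 changed by log2 2 were recovered. Of the 178 calls there, 9 were false. The noise was drawn independently for each gene, without the split of the day 1 rats, so recovery in the real data may differ.

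The genes, lists and tests were chosen with earlier results of these data known. Named genes are the 15 largest rises and falls that passed with all 6 day 1 rats outside the control range, up to 5 passing genes per list, 7 fixed genes (Calb1, Prox1, Gfap, Npy, Bdnf, Arc and Fos), the genes that passed in differences between experiments, and the 4 largest each way between days. Channel and receptor genes that did not pass may also be named. Egfr, Fgf1 and Chgb, which passed in their lists, and genes named only for a promoter match lay outside this rule. They were not checked under the alternatives below. Alternatives changed the value added before log2, normalization, filter, choice of probe set, array weights, replicate block, groups in the fit and rats left out.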

Additional observations from a re-analysis of the deposited data

Results flagged for a closer look

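Single rats lay far from the other 5 of their group in 11 of 276 groups of 6 checked (3.99%), where chance flags about 1 in 20 groups (5%). Values here are log2(signal + 16), with the nearest other rat after each. At day 1 they were Car10 in rat 2 (6.98, next 8.17), Adra1d in rat 3 (4.12, next 5.71), Ryr1 in rat 2 (5.19, next 5.74), Cdh13 in rat 2 (7.86, next 6.12), Hsd17b7 in rat 6 (6.07, next 6.86), Rgs4 in rat 1 (6.72, next 9.96), Nmb in rat 4 (4.14, next 5.44) and Hopx in rat 1 (6.66, next 7.93). Among controls they were Nnat in rat 1 (8.12, next 7.15), Snx7 in rat 5 (6.46, next 6.86) and the log2 ratio of 3' to 5' beta-actin in rat 1 (5.60, next 4.69). This check looks for 1 rat apart and can miss 2 rats that lie apart together. Most of the genes checked were also chosen from these same groups. The share flagged therefore cannot test whether outlying rats were as rare as by chance.

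The day 1 effect differed between experiments, by limma's test of the difference, for 5 genes. Laboratory B minus laboratory A was -2.60 for Calca (adjusted p = 0.048) and -1.33 for Iqgap2 (adjusted p = 0.0222). Pilocarpine in laboratory B minus kainate stopped after 90 min was 1.92 for Laptm5 (adjusted p = 0.00798), -1.77 for Prss23 (adjusted p = 0.0288) and -1.75 for Snx7 (adjusted p = 0.0445).

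Probe sets without a single gene symbol were outside the comparisons above. Of 5667 tested on their own, 514 (9.07%) passed at day 1, 229 higher and 285 lower.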

How the results depend on the processing

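Counts of genes that passed were 1236 at day 1, 2 for laboratory B minus A, 3 for pilocarpine minus kainate, 13 for day 3 minus day 1 and 0 for day 10 minus day 1. The day 1 count stayed within 1.5 times under every alternative except the fit of all 28 groups (3240) and those leaving out rats. Quantile normalization gave 1208, of which 47% were higher, against 54.1% of the 1236. With the replicate block the counts were 1323 at day 1, 1 for laboratory B minus A and 9 for pilocarpine minus kainate, and 2 of 6 rats correlated best with their own number. Laboratory B minus A gave 1 with 1 added before log2, without the filter, with probe sets averaged and with the second arrays of repeated controls, 27 with their first arrays and 412 with all groups. Pilocarpine minus kainate gave 1 with 1 added and with array weights, and 535 with all groups. Day 3 minus day 1 gave 5 with 1 added, 20 with 64 added, 20 with quantile normalization, 30 with arrays centred, 104 with array weights and 1521 with all groups, and day 10 minus day 1 gave 939 with all groups. Leaving out each rat in turn of the groups compared gave 731 to 1762, 0 to 4, 1 to 38, 5 to 470 and 0 to 0 in the order of the first sentence. Chosen after seeing the data were leaving out the rats that stand apart, single rats for the kainate comparison, single laboratory A rats, and single day 1 rats for the later days. Without day 1 rats 1 and 2 the counts were 2387, 0, 82, 1376 and 175 in that order, and day 10 minus day 1 gave 167 without day 10 rats 1 to 3 and 1578 without all 5. Of 120 named genes that passed at day 1, 97 passed under every alternative that kept all rats, and all 120 kept their sign under every alternative run. Among named genes that did not pass, Fst changed sign without day 1 rats 1 and 2 (0.16) and Cdk1 ranged from -0.18 to 0.094 as single rats were left out. The cause of these changes was not tested.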
